A study of Ovis aries with 16 samples.

Results

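Growth restriction was compared with control in perirenal adipose tissue of sheep fetuses with males and females pooled. The comparison used all 16 of the 16 RNAseq libraries of the series, 1 per fetus. The 8 growth-restricted libraries were 4 from males (MFGR) and 4 from females (FFGR), and the 8 control libraries were 4 from males (MC) and 4 from females (FC). The sex was kept as a block, so that each growth-restricted fetus was set only against controls of its own sex, and the effect given here is the mean of the male and the female effect. All fetuses came from Columbia-Rambouillet ewes carrying a single fetus and were taken near term. The ewes of the MFGR and FFGR groups spent part of the pregnancy in heat, a treatment after which the placenta supplies the fetus poorly and the fetus stays small. The control ewes were kept at a moderate temperature and given matched amounts of feed. The model therefore joins maternal heat with placental insufficiency, and these cannot be told apart.

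Perirenal fat is the main fat depot of the newborn lamb. Its brown adipocytes burn lipid in their mitochondria through uncoupling protein 1 (UCP1) and produce heat at birth. They lie among white adipocytes, which store lipid and secrete leptin, and among preadipocytes, which divide and later become either kind. Both kinds of adipocyte use fatty acid binding protein 4 (FABP4) to carry fatty acids and secrete adiponectin (ADIPOQ).

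The deposited values are in TPM, the share of a library that a transcript takes after correction for its length. The read depth is unknown, because TPM sums to 1000000 in every library, and the precision of a difference was taken from the spread between fetuses. Each library listed between 20153 and 21917 transcripts above 0. A transcript was tested if 3 or more of the libraries had 20 TPM or more of it, which left 4574 transcripts and 92.3% to 95.1% of the TPM. Differences were taken on log2(TPM + 1), which understates the changes of low transcripts. In all 16 libraries UCP1, FABP4 and ADIPOQ were at 1317 TPM or more, so the labelled tissue carried its defining transcripts throughout. Libraries of the same sex correlated at 0.8997 to 0.961 across transcripts and libraries of opposite sex at 0.706 to 0.768.

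A common response of both sexes was hardly detectable in single transcripts. Of 4574 transcripts, 1 was called higher in growth-restricted fetuses (0.0219%) and 0 lower (0%), at a Benjamini-Hochberg adjusted p under 0.05 in limma and a fold above 1.5. Without the fold threshold the counts were the same, and the next smallest adjusted p was 0.146. At an unadjusted p under 0.05, 267 transcripts were higher (5.84%) and 343 lower (7.5%). This split moved with the scaling of the libraries. It was 358 higher and 288 lower after median-of-ratios scaling, 273 and 326 after quantile normalization, and 162 and 802 when TPM was recomputed without the mitochondrial transcripts, which moved the median log2 fold change of all transcripts from -0.03 to -0.10.

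The pooled differences were small for most transcripts. The 95% interval lay within 1.5-fold either way for 3420 transcripts (74.8%) and within 2-fold for 4130 (90.3%). Of the tested transcripts, 3296 reached 20 TPM in 3 or more libraries of each sex. The rest can be low in 1 sex, where log2(TPM + 1) understates a change. On the log2 scale the standard error was 0.12 in the median pooled and 0.17 within a sex. An estimated difference above 2-fold was found for 52 transcripts, of which 30 had an unadjusted p under 0.05. Of the 610 transcripts with an unadjusted p under 0.05, 594 had the same sign in both sexes, which the pooling favours, and 432 had the larger difference in males. Their median absolute log2 fold change was 0.38 in males and 0.23 in females.

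The variation between fetuses of a sex was split over the same 4574 transcripts. The effect common to both sexes accounted for 9.37% of it with 1 degree of freedom. The difference of the effect between the sexes accounted for 10.1% with 1 degree of freedom, and the rest for 80.6% with 12, or 6.71% for each. The common effect was thus no larger than its difference between the sexes. By the interaction term in limma 0 of 4574 transcripts passed, with a smallest adjusted p of 0.272, while 511 (11.2%) had an unadjusted p under 0.05. With a weight for each library the interaction gave 53 calls, so the count of 0 depended on that setting.

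Principal components of values centred within each sex gave the same picture. Component 1 held 18.0% of the variance. Its mean score was 11.4 higher in growth-restricted than in control libraries (exact permutation test within sex, two-sided, p = 0.0988, 4900 assignments, smallest possible p 0.000408). The difference was 26.8 in males, whose 4 MFGR libraries all lay above the 4 MC libraries, and -3.98 in females, whose groups overlapped. FC replicate 3, with a score of 20.2, lay among the MFGR libraries, and without it the pooled difference was 14.3 with an exact permutation p of 0.0269. Of all libraries left out 1 at a time, this was the only one that gave a p under 0.05. The exact permutation p reached 0.226 in the other cases. Component 2 held 14.1% of the variance and did not separate the groups (difference 6.24, exact permutation p = 0.327).

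**Figure D1:**
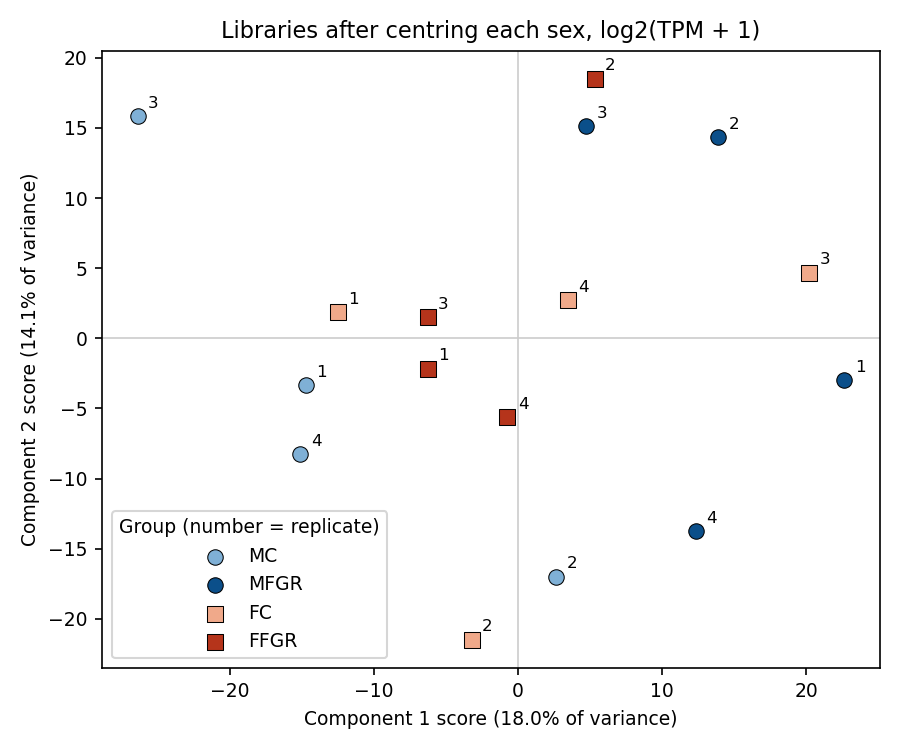
Scores of the 16 libraries on components 1 (horizontal, 18.0% of the variance) and 2 (vertical, 14.1%) of log2(TPM + 1) after centring each sex, with circles for males, squares for females and replicate numbers beside the points. The 4 MFGR libraries lie to the right of the 4 MC libraries, while FC and FFGR libraries overlap and FC replicate 3 lies at 20.2.

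The only transcript that passed was ENSOART00020005697, whose gene is not paired with it in the sources used here. It had 212, 200, 252 and 255 TPM in MC and 320, 438, 429 and 305 TPM in MFGR. In females it had 146, 144, 137 and 171 TPM in FC and 244, 258, 214 and 184 TPM in FFGR. Each growth-restricted library lay above every control library of its sex. The pooled change was 1.55-fold (log2 fold change 0.63, SE 0.10, 95% interval 0.42 to 0.84, adjusted p = 0.0495). It was 0.69 in males and 0.58 in females on the log2 scale, and the difference between the sexes did not pass (adjusted p of the interaction in limma = 0.861). In the main fit the call lay at the threshold. It was lost, with the difference at 0.59 or more, when any 1 of 13 of the 16 libraries was left out (adjusted p up to 0.169), and it was kept without MFGR replicate 4, FC replicate 4 or FFGR replicate 4. Under other scalings the adjusted p in limma was smaller. It was 0.0040 with median-of-ratios scaling, 0.0129 with quantile normalization and 0.0132 without the mitochondrial transcripts. In the last case the log2 fold change of 0.56 was under the 1.5-fold threshold, so the transcript was not called.

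Across all tested transcripts, 9 were without overlap between growth-restricted and control libraries in both sexes and in the same direction. Of these, 2 were higher (0.0437%) and 7 lower (0.153%). Within 1 sex at a time, 444 transcripts (9.71%) did not overlap in males and 176 (3.85%) in females. In opposite directions, 5 transcripts (0.109%) did not overlap in either sex, and all 5 were higher in MFGR than in MC and lower in FFGR than in FC.

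The most abundant transcripts were higher in growth-restricted fetuses more often than the rest. Of the 125 transcripts with a mean of 1000 TPM or more, 98 (78.4%) were higher, and their common median on the log2 scale was 0.21. Below 1000 TPM the share that was higher lay between 39.5% and 50.3% by abundance class. At an unadjusted p under 0.05, 45 of the 125 were higher and 2 lower, and 0 passed the adjusted threshold. In males 103 of the 125 were higher and in females 83. The 125 held the 11 mitochondrial transcripts, all of which were lower, and 21 members of the ribosome lists described below, 20 of which were higher. Of the other 93 transcripts 78 were higher (median 0.21, 0.30 in males and 0.12 in females).

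The size of this pattern depended on the scaling. In the main fit 42.4% of all transcripts below 1000 TPM were higher. After median-of-ratios scaling 100 of 125 abundant transcripts (80%) were higher, against 48.1% below 1000 TPM. Without the mitochondrial transcripts 82 of 114 were higher, against 27.7%. After quantile normalization 73 of 125 (58.4%) were higher, with a median of 0.03, against 46.6%. Quantile normalization gives every library the same distribution of values. The share of TPM held by the 11 mitochondrial transcripts had a lower mean in MFGR than in MC. It was 39.3% ± 3.55 in MC and 33.6% ± 4.02 in MFGR (SD, n = 4), and 33.4% ± 4.28 in FC and 32.2% ± 4.92 in FFGR (SD, n = 4). The male groups overlapped, at 35.0% to 43.5% in MC and 29.2% to 37.7% in MFGR, and the difference was not tested. Of the 114 abundant transcripts outside the mitochondrial genome, 98 (86.0%) were higher with that share in TPM and 82 (71.9%) with it removed. The share of higher transcripts below 1000 TPM fell as well, from 42.4% to 27.7%.

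**Figure D2:**
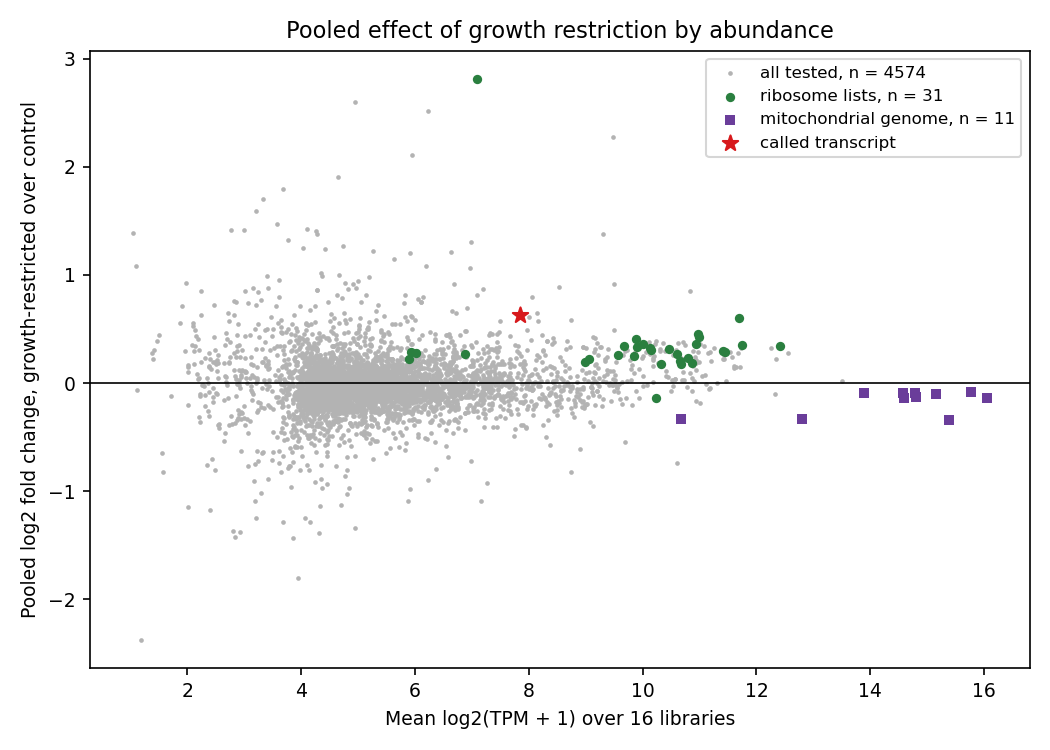
Pooled log2 fold change (vertical, growth-restricted over control) against the mean log2(TPM + 1) over 16 libraries (horizontal) for 4574 tested transcripts, with the ribosome lists, the mitochondrial transcripts and the called transcript marked. Ribosome list members lie mostly above 0 and the 11 mitochondrial transcripts below it, and the called transcript is at 0.63.

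The markers of brown and mature adipocytes showed no common difference that passed the test. In bulk tissue, fewer cells of a type and less RNA per cell cannot be told apart. For UCP1-201, MC had 1548, 3366, 1317 and 1596 TPM and MFGR 2292, 2889, 1520 and 2144 TPM. FC had 1839, 1803, 4430 and 2768 TPM and FFGR 1655, 2327, 2378 and 3441 TPM. The groups overlapped in both sexes, and the fold was 1.05 with a 95% interval of 0.747 to 1.49 (adjusted p = 0.931). CIDEA, a lipid droplet protein of brown adipocytes, was measured by CIDEA-201 and CIDEA-202. Their log2 fold changes were 0.16 (adjusted p = 0.577) and 0.06 (adjusted p = 0.960). CIDEA-202 lay under the 20 TPM filter, and its values come from a fit with the minimum lowered to 1 TPM, which took in 17291 transcripts. For CIDEA-201 the difference was -0.07 in males and 0.38 in females (adjusted p of the interaction in limma = 0.440).

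FABP4-201 was the adipose marker whose male and female estimates lay furthest apart. It had 2553, 4002, 1416 and 1809 TPM in MC and 10071, 4596, 3216 and 6178 TPM in MFGR. It had 3637, 2200, 10369 and 4616 TPM in FC and 1801, 2796, 2237 and 2251 TPM in FFGR. All MFGR libraries were above the MC median and all FFGR libraries below the FC median, but the groups overlapped in both sexes. MFGR replicate 3 lay below MC replicate 2, and FC replicate 2 lay below FFGR replicates 2, 3 and 4. The log2 fold change was 1.28 in males and -0.98 in females, and their mean was 0.15 with a 95% interval of -0.73 to 1.03 (adjusted p = 0.919). The difference between the sexes was 2.26 on the log2 scale, with an adjusted p of the interaction of 0.272 and an unadjusted 0.00244. ADIPOQ-201, in contrast, varied little. Male means were 2305 ± 79.0 TPM in controls and 2015 ± 292 TPM in MFGR, and female means 2514 ± 641 TPM in FC and 2699 ± 524 TPM in FFGR (SD, n = 4). The pooled fold was 0.970 with a 95% interval of 0.800 to 1.18, so a change of 1.5-fold lay outside it.

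Leptin and THY1 were the adipose markers with the largest pooled differences, both lower in growth-restricted fetuses. Leptin, the hormone that reports fat stores to the brain, was measured by ob. It had 18.8, 47.9, 24.6 and 25.9 TPM in MC and 38.1, 11.5, 15.2 and 31.9 TPM in MFGR. It had 23.9, 17.9, 46.2 and 21.5 TPM in FC and 15.6, 16.9, 10.5 and 9.96 TPM in FFGR. All FFGR libraries lay below all FC libraries, while MC and MFGR overlapped. The pooled log2 fold change was -0.64 (95% interval -1.22 to -0.06, unadjusted p = 0.0336, adjusted p = 0.340), with -0.34 in males and -0.93 in females. HOXC9-201, a homeobox transcript used as a white adipocyte marker, had a pooled log2 fold change of -0.25 (adjusted p = 0.611, from the fit at 1 TPM as for CIDEA-202), and its group means were between 3.42 and 9.73 TPM.

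THY1 is a cell surface glycoprotein of preadipocytes and other stromal cells. THY1-201 had 63.0, 33.1, 68.1 and 60.9 TPM in MC and 14.9, 19.0, 35.4 and 23.7 TPM in MFGR. It had 40.4, 30.3, 10.9 and 23.7 TPM in FC and 25.8, 6.51, 35.5 and 13.0 TPM in FFGR. No MFGR library reached the MC median, MC replicate 2 alone fell within the MFGR range, and the female groups overlapped throughout. The pooled log2 fold change was -0.86 (95% interval -1.58 to -0.15, unadjusted p = 0.0203, adjusted p = 0.295), with -1.26 in males and -0.47 in females. THY1-202, the larger of the pair in each female library, had -0.74 (adjusted p = 0.358), with -1.06 in males and -0.42 in females. It was low in males, with means of 7.10 TPM in MC and 2.60 TPM in MFGR, against 35.4 TPM in FC and 29.0 TPM in FFGR. Summed over both transcripts, THY1 had a mean of 63.4 TPM in control and 25.9 TPM in growth-restricted males, and of 61.8 TPM in control and 49.2 TPM in growth-restricted females.

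**Figure D3:**
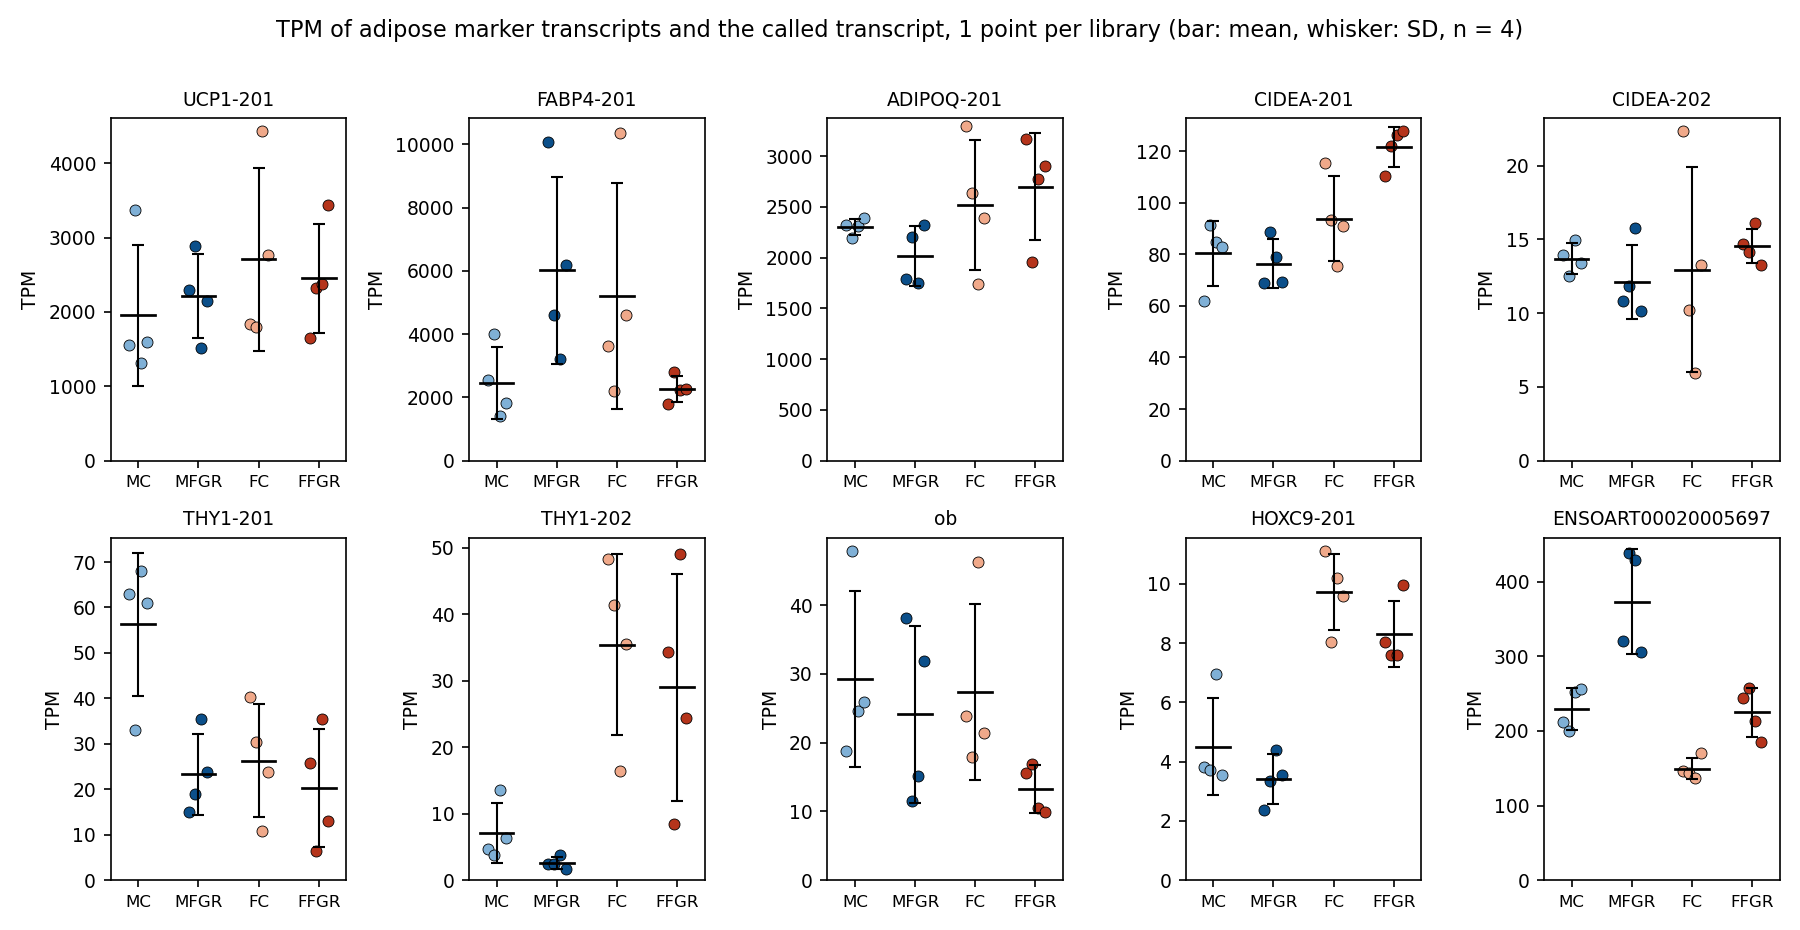
TPM (vertical, from 0) of 9 adipose marker transcripts and of the called transcript in each library, by group, with the mean as a bar and the SD as a whisker (n = 4). FABP4-201 has a higher mean in MFGR than in MC and a lower mean in FFGR than in FC, with overlap in both sexes. The transcripts ob and THY1-201 have the lower mean in the growth-restricted group of both sexes.

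The mitochondrial genome encodes subunits of the respiratory chain that the brown adipocyte uses to make heat. Its 11 measured transcripts were all lower in growth-restricted fetuses, by 0.08 to 0.34 on the log2 scale, and 0 of 11 passed (adjusted p 0.201 to 0.854). All 11 were lower in males and 9 in females. Each of the 11 intervals excluded a 2-fold change. These transcripts come from 1 small genome and are shares of the same libraries, so their common direction is not 11 separate observations. After quantile normalization 9 of 11 were lower.

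The largest of these differences was that of COX3-201, a subunit of cytochrome c oxidase. MC had 67150, 64361, 52297 and 63926 TPM and MFGR 42623, 47328, 41928 and 40868 TPM, without overlap. FC had 34847, 41267, 34011 and 38213 TPM and FFGR 33037, 27092, 36272 and 36928 TPM, with overlap. The log2 fold change was -0.34 pooled (95% interval -0.54 to -0.13, unadjusted p = 0.00324, adjusted p = 0.201), -0.52 in males and -0.16 in females. ND5-201 and ND6-201, subunits of complex I, also had -0.34 pooled, with intervals that reached 0.0020 and 0.02. ND5 and ND6 are neighbours on opposite strands, and how reads were divided between them is not known here. ND6-201 was at 3707 to 7727 TPM in males and 308 to 693 TPM in females, which the sex block removes. The other 8 transcripts lay between -0.14 and -0.08.

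**Figure D4:**
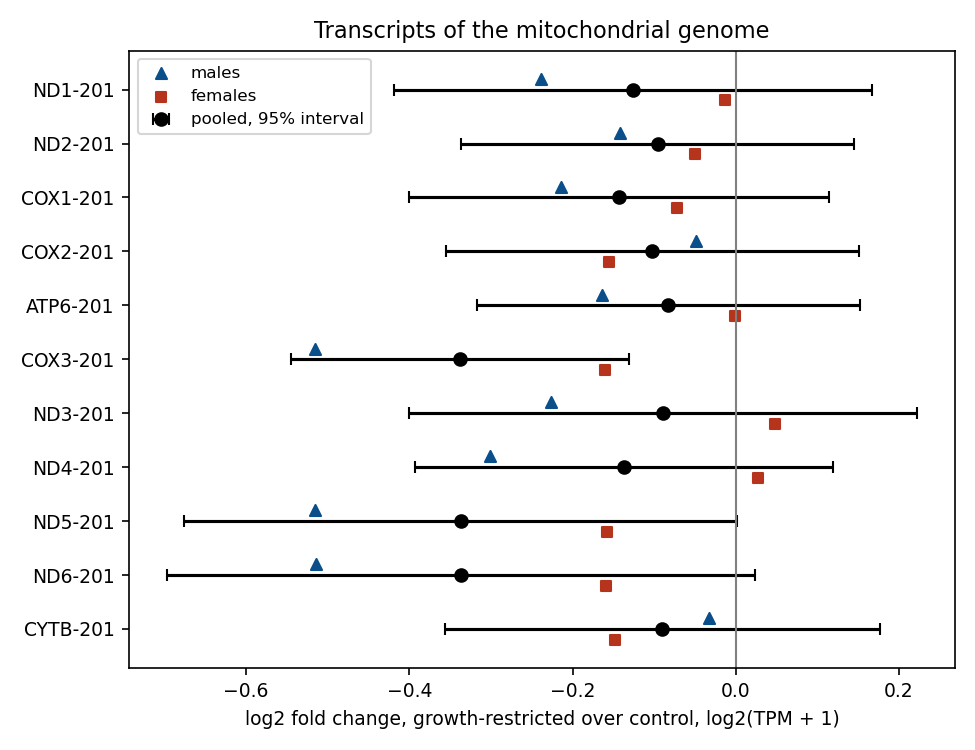
Log2 fold change (horizontal, growth-restricted over control) of the 11 mitochondrial transcripts, pooled with its 95% interval, in males and in females. All pooled values lie below 0, and only the interval of COX3-201 does not reach 0.

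Pathway lists were taken from the study's own enrichment tables, which give transcript identifiers without gene names. Some lists were chosen on MFGR against MC, so only the FFGR and FC libraries are independent of that choice. Other lists were chosen on MC against FC, with the control libraries used here. In each of the 21 lists 0 members passed the adjusted threshold in the pooled comparison, so they are described by counts and medians beside 43.4% higher and a median log2 fold change of -0.03 for all tested transcripts.

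Ribosome transcripts, which encode the protein subunits that build the ribosome, were higher in nearly every member in growth-restricted fetuses. The 2 ribosome lists shared 3 transcripts and held 31 in all, every one of them tested. Of these, 30 were higher in growth-restricted fetuses (median 0.29). At an unadjusted p under 0.05, 19 of 31 were higher, where the share of all tested transcripts was 5.84%. Abundant transcripts in general were above that share. At a mean of 1000 TPM or more, 15 of 21 members were higher at that p, and so were 30 of the 93 others outside the mitochondrial genome. Of the 19 members, 13 stood in the list chosen on MFGR against MC, which are 8 of the 16 libraries pooled here. In females 27 of 31 were higher but 1 of 31 had an unadjusted p under 0.05, and that 1 stood only in the list chosen on MC against FC. The FC libraries helped to choose that list as higher in MC, which favours higher values in FFGR than in FC. The list chosen on MFGR against MC had 16 of 16 higher pooled. In females, whose libraries did not choose it, 13 of 16 were higher (median 0.20) and 0 of 16 had an unadjusted p under 0.05. Of these 16, 3 also stood in the other list. The 15 transcripts that stood only in the list chosen on MC against FC had 14 higher pooled (median 0.23), 14 in males (0.28) and 14 in females (0.13). Under every scaling and with any 1 library left out, 29 to 31 of 31 were higher, and 30 were higher when the mitochondrial transcripts were removed.

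Summed over the 31 transcripts, the libraries differed widely within a group. The sums were 46400, 36082, 41735 and 41987 TPM in MC and 51329, 62344, 68987 and 47422 TPM in MFGR. They were 51189, 43534, 48401 and 44631 TPM in FC and 58583, 68897, 48183 and 42113 TPM in FFGR. The male groups did not overlap, but 16 of the 31 were listed because they were higher in MFGR than in MC. The 15 that stood only in the other list overlapped in males. Their sums were 18316 to 24043 TPM in MC and 22274 to 31271 TPM in MFGR. Over all 31 transcripts, FFGR replicates 1 and 2 were the 2 highest and FFGR replicate 4 was the lowest of the 8 female libraries.

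The largest log2 fold change among them, 2.81, belonged to a transcript that was nearly on or off. It had 1.24 to 8.87 TPM in the 4 MC libraries and 949, 1085, 1104 and 0.501 TPM in MFGR. In females it had 834, 122, 862 and 786 TPM in FC and 908, 1171, 1475 and 112 TPM in FFGR. Its 95% interval ran from 0.03 to 5.60 (adjusted p = 0.372). Reads of ribosomal protein transcripts can be shared with near-identical copies, and the division of reads between them was made by the authors' quantification.

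The metabolic pathways list, chosen on MFGR against MC, had 19 transcripts, of which 16 were tested. All 16 were higher pooled (median 0.46), as they were in males (median 0.78). In females 11 of 16 were higher, with a median of 0.05, so the pooled value came mostly from the libraries that chose the list. The 4 transcripts of xenobiotic metabolism by cytochrome P450, 3 of them also in the metabolic list, had a median of 0.46 pooled, 0.75 in males and 0.11 in females, where 3 of 4 were higher. The list for chemical carcinogenesis held the same 4 transcripts.

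PPAR signaling, through which fatty acids switch on lipid storage genes, had 4 transcripts, of which FABP4-201 was 1. All 4 were higher pooled, with a median of 0.25. In males the median was 1.26 and in females -0.45, where 1 of 4 was higher. That 1 transcript, also in the metabolic list, was the member with the smallest p. It had 19.1, 22.2, 23.2 and 25.4 TPM in MC and 58.5, 94.6, 58.6 and 57.4 TPM in MFGR, without overlap. It had 31.2, 30.8, 32.9 and 20.8 TPM in FC and 53.0, 34.1, 31.1 and 41.3 TPM in FFGR, where only FFGR replicate 3 fell within the FC range. Its log2 fold change was 0.98 pooled (95% interval 0.57 to 1.38, adjusted p = 0.168), 1.51 in males and 0.44 in females. The adjusted p of its interaction was 0.272.

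Steroid biosynthesis, the pathway that makes cholesterol, had 4 transcripts in the list chosen on MFGR against MC, of which 2 were tested, and both were lower. The first had 31.9, 41.6, 48.1 and 35.6 TPM in MC and 18.4, 9.86, 13.6 and 17.1 TPM in MFGR. In females it had 26.7, 20.7, 31.6 and 21.4 TPM in FC and 23.7, 15.2, 26.6 and 25.0 TPM in FFGR. The groups did not overlap in males and overlapped in females, and the log2 fold change was -0.76 pooled (adjusted p = 0.201), -1.38 in males and -0.15 in females. The second had -0.25 pooled, -0.71 in males and 0.22 in females. In females the 4 transcripts of the list summed to 74.2, 65.6, 83.0 and 75.6 TPM in FC and to 76.7, 55.7, 87.9 and 88.2 TPM in FFGR, with overlap.

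The lists for focal adhesion, the contact of cells with their matrix, and for PI3K-Akt signaling, a growth factor pathway, shared 6 transcripts and had the same 4 tested members. All 4 were lower pooled, with a median of -0.65, and 3 had an unadjusted p under 0.05. The medians were -1.14 in males and -0.17 in females, where 3 of 4 were lower. The 6 focal adhesion transcripts summed to 742, 422, 836 and 718 TPM in MC and 133, 312, 456 and 189 TPM in MFGR. They summed to 526, 444, 269 and 505 TPM in FC and 371, 277, 617 and 258 TPM in FFGR. MC replicate 2 was the lowest MC library and FC replicate 3 the lowest FC library, as in THY1-201, and FFGR replicate 3 was the highest FFGR library in both. Whether the amount of stromal cells differed between fetuses was not tested.

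The lists for heat production and respiration showed medians near that of all transcripts. The thermogenesis list had 16 tested transcripts with a median of -0.01, of which 7 were higher and 9 lower. It shared 11 transcripts with the oxidative phosphorylation list that was lower in MC than in FC, whose 12 tested transcripts had a median of -0.02. Both held ATP6-201 of the mitochondrial genome. The oxidative phosphorylation list that was higher in MC had 11 tested transcripts with a median of -0.09, and 4 of its members are mitochondrial. The thermogenesis medians were 0.10 in males and -0.14 in females, where 14 of 16 were lower. This list too was chosen as lower in MC than in FC, and the same control libraries are the baseline here. The choice itself favours higher values in males and lower values in females, so the 2 medians are not independent of it. The spliceosome list had a median of -0.03 over 14 transcripts and the phagosome list -0.10 over 9. The 5 lists named for Parkinson disease, amyotrophic lateral sclerosis, Huntington disease, diabetic cardiomyopathy and prion disease, chosen on MC against FC, had medians between -0.12 and 0.02. The coronavirus disease list, chosen on MFGR against MC, had 15 tested transcripts, 14 of them also in the ribosome lists, and all were higher pooled, with a median of 0.36 and of 0.20 in females.

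**Figure D5:**
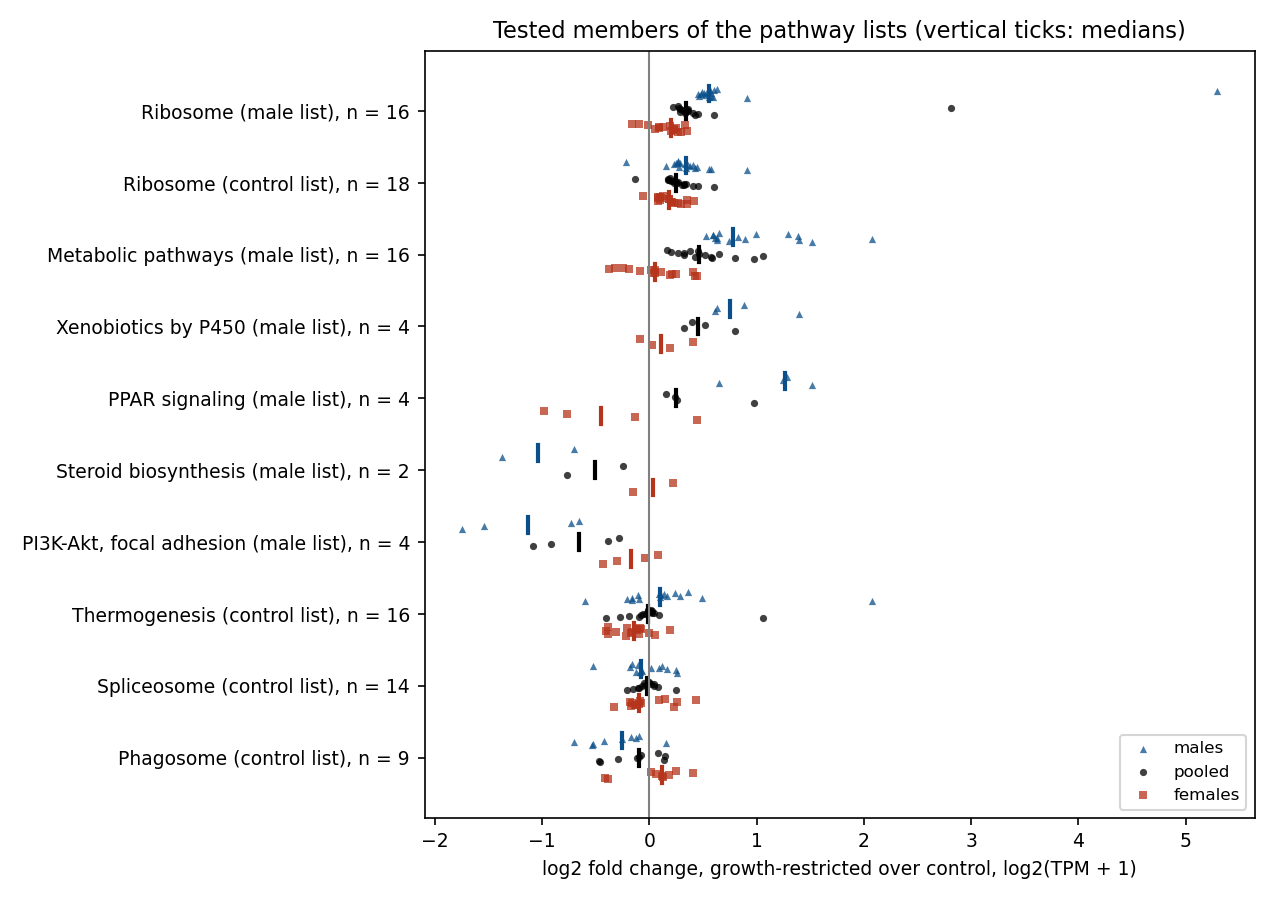
Log2 fold change (horizontal, growth-restricted over control) of each tested member of 10 pathway lists in males (triangles), pooled (circles) and in females (squares), with medians as vertical ticks. "Male list" marks lists chosen on MFGR against MC and "control list" those chosen on MC against FC, and the ribosome lists have medians above 0 in both sexes while PPAR signaling has 1.26 in males and -0.45 in females.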

How the data were processed

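RNA of perirenal adipose tissue from 16 fetuses, 4 each in MC, MFGR, FC and FFGR, was sequenced. Groups and replicate numbers were taken from the labels. Per the labels and the paper's methods, the authors checked reads with FastQC 0.11.9, quantified them with Salmon (version not given in the sources used here) against Ensembl transcripts of the sheep assembly Oar_rambouillet_v1.0 and deposited TPM for 35219 transcripts, of which 5462 are at 0 throughout. No counts were used here, so no count model was run.

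The 4574 transcripts that reached 20 TPM in 3 or more libraries were put on the log2(TPM + 1) scale. A linear model with terms for growth restriction and sex was fitted in R 4.3.3 with limma 3.58.1 (trended prior variance, 13 residual degrees of freedom). P-values were adjusted by Benjamini-Hochberg over all 4574 (over 17291 in a fit at 1 TPM used for CIDEA-202 and HOXC9-201), and a call required 0.05 after adjustment and a fold above 1.5. Values within a sex and the interaction came from a fit of 1 mean per group, with 12 residual degrees of freedom. Component scores were tested by exact permutation within sex, two-sided. The fit was tested on simulated data.

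The named transcripts were the 20 that the study identifies (9 adipose and 11 mitochondrial), plus the called ones. Another was left out because its printed identifier belongs to CIDEA-202. List members are given without identifiers, and 2 lists that are printed only in part were not used. Sequences and symbol-based gene lists were not used here, because no table at hand pairs these transcripts with genes. Members and lists were chosen with earlier results of these data known. Alternatives were another pseudocount, filter, scaling, variance model, library weights, each sex alone, the replicate number as a block and leaving out each library.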

Additional observations from a re-analysis of the deposited data

Results flagged for a closer look

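In a group of 4 libraries, a library was marked when its gap to the nearest other exceeded 0.829 of the range of the group. This was examined for 96 group values, of which 3 were marked, and chance marks about 1 in 20. MC replicate 2 had 33.1 TPM of THY1-201, the lowest MC value, against 60.9 to 68.1 TPM in the other 3 MC libraries. MC replicate 3 had 6.94 TPM of HOXC9-201, against 3.55 to 3.80 TPM in the others. FC replicate 2 had a score of -21.5 on component 2, against 1.85 to 4.67 in the other FC libraries. Of the named transcripts, 0 had an interaction past the adjusted threshold of 0.05 in limma, and 0 moved in opposite directions without overlap in both sexes.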

How the results depend on the processing

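The count of 1 called transcript fell to 0 with a fold above 2, a pseudocount of 5, a filter at 1 TPM or no filter. It was also 0 with no trend, a robust prior variance, library weights or only the female libraries. TPM without the mitochondrial transcripts gave 0 as well. There ENSOART00020005697 had an adjusted p in limma of 0.0132, but its log2 fold change of 0.556 was under the fold threshold of 0.585. The count was 2 with 1 mean per group, 5 with only the male libraries, and 0 to 1 with 1 library left out. Without FFGR replicate 1 the 1 call was another transcript. Without a minimum fold, TPM without the mitochondrial transcripts gave 1 lower. ENSOART00020005697 kept its direction, at 0.59 to 0.68 with 1 library left out (adjusted p 0.0218 to 0.169). Interaction calls were 2 with a filter at 1 TPM, 2 with no filter, 53 with library weights and 0 to 2 with 1 library left out. The 9 transcripts without overlap in both sexes became 21 with a filter at 1 TPM, 23 with no filter, 16 with median-of-ratios scaling, 15 with quantile normalization, 16 without the mitochondrial transcripts and 9 to 24 with 1 library left out, which makes the criterion easier to meet. The difference on component 1 was 9.24 to 14.3 with 1 library left out and passed at p = 0.0269 (exact permutation test) without FC replicate 3 alone. On component 2 it was 1.65 to 10.5.

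Values near 0 changed sign. Quantile normalization gave UCP1-201 -0.047, FABP4-201 -0.089, ND2-201 0.13 and COX2-201 0.071. TPM without the mitochondrial transcripts gave UCP1-201 -0.0013 and CIDEA-202 -0.015. Only the male libraries gave CIDEA-201 -0.065 and CIDEA-202 -0.18, and only the female libraries gave UCP1-201 -0.092, FABP4-201 -0.98, ADIPOQ-201 0.12, ND3-201 0.048 and ND4-201 0.027. With 1 library left out the ranges were -0.0083 to 0.21 for UCP1-201, -0.069 to 0.43 for FABP4-201, -0.13 to 0.012 for ADIPOQ-201 and -0.096 to 0.17 for CIDEA-202. The cause of these changes was not tested. The counts for abundant, ribosome and metabolic transcripts under each setting were added after seeing the data.

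With the replicate number as a block, 0 transcripts were called, and ENSOART00020005697 had an adjusted p of 0.155. The numbers share no animal, and the correlations of same-numbered libraries, -0.12 to 0.14, show no pairing, with 2 of 8 pairs closest to their own number. The unknown depth limits what can be said of low transcripts, and 4 libraries per group limit the power within a sex.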
